A study of Mus musculus with 6 samples.

Results

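The TNF ligand and receptor superfamilies were examined in mouse tracheal mesenchyme before and after inhalation injury. Members were the genes whose symbol in the array's annotation starts with Tnfrsf or Tnfsf, together with Tnf, Lta, Ltb, Ltbr, Cd40, Cd40lg, Fas, Fasl, Cd27 and Cd70. A probe set, the group of array probes that reports 1 transcript, counted only where it was assigned to exactly 1 symbol. This gave 37 genes of 18193 measured, on 59 probe sets, and where a gene had several, the brightest by its mean across the 6 samples represented it. The 37 were 13 ligands, 5 death domain receptors, 15 TRAF-binding receptors, 3 decoy receptors and the lncRNA gene Tnfsf13os.

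Tracheas came from adult male C57Bl/6 mice, aged 8 to 12 weeks by the study's methods, with no transgene or deletion named in any group. Injured mice inhaled SO2 at 500 ppm for 4 h, a gas injury that kills the luminal cells of the airway epithelium, and were sampled 48 h post injury (48 hpi), while control mice were uninjured. Each sample pooled 4 mice, with 3 samples in each group. The epithelium was peeled off after 23 min in dispase and all remaining tissue was used, so a sample mixes fibroblasts, cartilage, smooth muscle, vessels, nerves and leukocytes. RNA of epithelial marker genes was also measured in both groups, as given below.

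Ligands of the TNF superfamily are mostly membrane proteins that assemble as trimers, and many are shed as soluble cytokines. Their receptors carry cysteine-rich repeats outside the cell. Death domain receptors recruit adaptors that can lead to NF-kappaB activation, caspase activation or necroptosis, TRAF-binding receptors activate the canonical or non-canonical NF-kappaB pathway and MAP kinases, and decoy receptors bind a ligand without passing on a signal. In an injured airway these molecules are known for inflammation, leukocyte survival and costimulation, bone and cartilage turnover, and cell death.

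Each array gave 1 log2 value per probe set, produced by RMA, so that a difference of 1 is a doubling. A level was called dim where both group means lay below 5.35, the median of all values in the table. Expression of 16 of the 37 members was dim, against 33.7% of all genes. A gene was called where limma's adjusted p was under 0.05. Across probe sets, correlations between arrays within a group ran from 0.987 to 0.994. Between a control and a 48 hpi array they ran from 0.974 to 0.989, so the ranges overlapped. Samples that share a replicate number deviated together from their group means. A second fit with that number as a block is therefore given for every member whose call it changed. As for the labelled tissue, all 6 fibroblast, all 6 chondrocyte and all 5 smooth muscle markers lay far above the median, and 4 of 6 luminal epithelial markers, the secretory genes Scgb1a1, Scgb3a2 and Bpifa1 and the keratin gene Krt8, lay above it too. The ciliated cell markers Foxj1 and Dnah5 were dim. The mean level of the luminal list was 9.13 to 9.81 in controls and 7.62 to 9.41 at 48 hpi. Of its 6 markers 0 were called without the block, and 2 fell with it, where 4.64% of all genes did. Among 5 basal epithelial markers, Krt5, Krt14 and Krt15 lay above the median in both groups, while Trp63 and Krt17 were dim. The mean level of the basal list was 5.74 to 6.53 in controls and 6.09 to 6.90 at 48 hpi.

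At 48 hpi, the receptors Tnfrsf1b and Tnfrsf13b rose and 0 members fell. That is 2 of 37 members, or 5.41%, where 6.21% of all genes were called (4.97% higher and 1.24% lower, and 4.34% of all probe sets, 3.49% of them higher), so the share of called members was near the background. At an unadjusted p under 0.05, 12 members were higher and 2 were lower, where 23.9% of all genes passed in either direction. An unmoderated model called 0 members at the adjusted threshold, with 8 higher and 1 lower unadjusted. That model called few genes elsewhere too, with 0 of 62 pathway genes and 2 of 84 cell type markers higher. Its share of all genes is not given here, so its 0 says nothing particular about the members. With the replicate block, 7 members rose (8.77% of all genes did) and 1 fell (4.64% of all genes did), against 13.4% in either direction. Without both samples numbered 1, 0 members were called in limma, with 9 higher and 1 lower at an unadjusted p under 0.05, where 2.69% of all genes were called and 2.27% rose. The 7 were Tnfrsf1b, Tnfrsf13b, Tnfsf11, Tnfrsf12a, Tnfrsf22, Tnfsf8 and Tnfsf13b, and the 1 was Tnfrsf11b. The median log2 difference of the 37 members was 0.09, that of all genes -0.01. In bulk tissue a change in the number of cells of a type and a change in RNA per cell cannot be told apart.

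**Figure D1:**
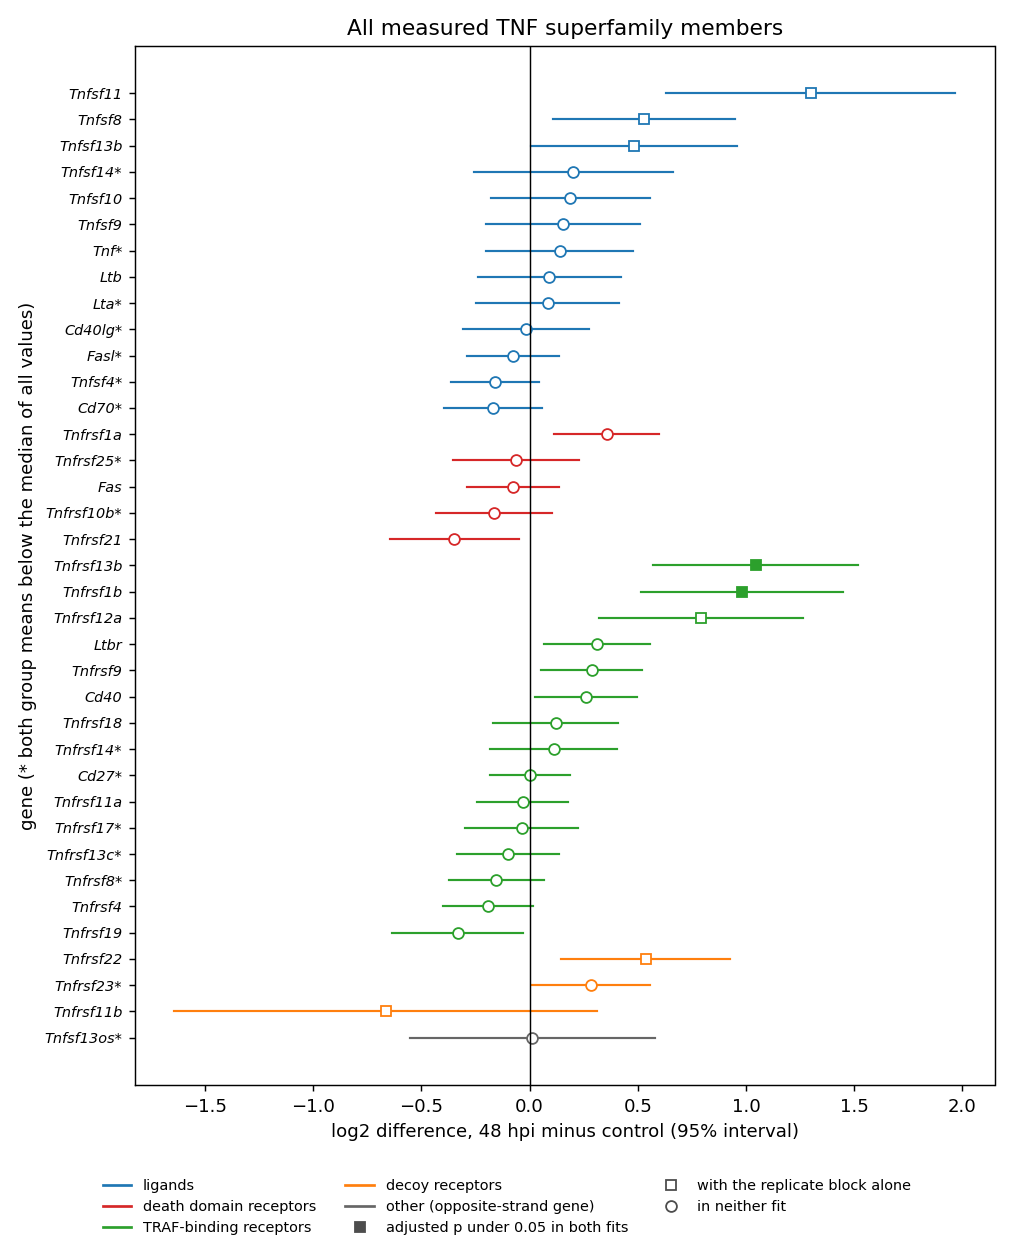
Horizontal positions give the log2 difference, 48 hpi minus control, of all 37 members (vertical axis), colored by role, with the 95% interval of the limma fit without the block. Filled squares mark the 2 members called in both fits, open squares those called with the replicate block alone, circles the others, and an asterisk marks the 16 dim members. Tnfsf11 lies farthest to the right at 1.30 and Tnfrsf11b farthest to the left at -0.67.

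The 4 members with the highest log2 differences were Tnfsf11, Tnfrsf13b, Tnfrsf1b and Tnfrsf12a. The 250 bases before their RefSeq start sites (GRCm38.p6, read 5′ to 3′ on the gene's strand) are shown because these genes moved the most, with capitals marking TATAA within 40 bases of the start.
Tnfsf11, chr14:78308044-78308293, - strand: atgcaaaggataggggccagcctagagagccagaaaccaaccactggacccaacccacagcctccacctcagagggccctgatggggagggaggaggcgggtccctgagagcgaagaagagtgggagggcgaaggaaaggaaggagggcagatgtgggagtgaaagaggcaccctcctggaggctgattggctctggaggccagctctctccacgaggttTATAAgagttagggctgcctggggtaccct
Tnfrsf13b, chr11:61126505-61126754, + strand: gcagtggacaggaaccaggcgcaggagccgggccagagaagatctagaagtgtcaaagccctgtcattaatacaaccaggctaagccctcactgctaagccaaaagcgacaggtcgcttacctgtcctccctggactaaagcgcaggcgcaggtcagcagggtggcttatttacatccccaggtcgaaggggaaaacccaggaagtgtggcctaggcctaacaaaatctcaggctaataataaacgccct
Tnfrsf1b, chr4:145246871-145247120, - strand: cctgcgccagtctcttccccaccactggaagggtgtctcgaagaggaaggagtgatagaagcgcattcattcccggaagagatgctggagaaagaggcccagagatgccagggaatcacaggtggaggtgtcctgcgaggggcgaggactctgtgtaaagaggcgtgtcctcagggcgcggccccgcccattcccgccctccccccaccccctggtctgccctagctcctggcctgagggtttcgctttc
Tnfrsf12a, chr17:23677450-23677699, - strand: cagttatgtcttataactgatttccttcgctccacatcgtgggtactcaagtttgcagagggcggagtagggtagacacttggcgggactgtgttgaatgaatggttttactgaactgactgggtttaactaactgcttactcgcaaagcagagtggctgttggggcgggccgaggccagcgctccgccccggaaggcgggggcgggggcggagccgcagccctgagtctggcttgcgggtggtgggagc

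TATAA was searched on the gene's strand in the last 40 bases before the start only, so copies farther upstream, as in the window of Tnfrsf12a, were not counted or capitalized. Within those 40 bases it was present in the ligand gene Tnfsf11, 30 bases before the start, and, among the 28 members with a window in the RefSeq table, also in Tnf. Of the 32851 windows searched, which did not cover every chromosome, 4.23% held it in their last 40 bases. The 28 members had 32 of these windows, of which 6.25% held it. None of the 4 windows shown held the NF-kappaB consensus or the AP-1 motif TGANTCA, searched on both strands over all 250 bases. The NF-kappaB consensus was present in windows of 4 members, Ltb, Tnfrsf8, Tnfrsf9 and Tnfrsf25. This was 12.5% of the 32 member windows, against 7.25% of the windows searched. AP-1 was present in windows of 5 members, Fas, Tnfrsf8, Tnfrsf9, Tnfsf13b and Tnfsf14. This was 15.6% of the 32 member windows, against 6.75% of the windows searched. No test compared these shares. Tnfrsf8 and Tnfrsf9 each had NF-kappaB matches that overlapped each other.

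Among the TRAF-binding receptors 2 of 15 rose and 0 fell, where 4.97% of all genes rose, and 3 rose with the replicate block, where 8.77% did. The first was Tnfrsf1b, the TNF receptor (TNFR2) of leukocytes and endothelium, which prefers membrane-bound TNF. Its level was 6.85, 6.22 and 6.54 in control replicates 1, 2 and 3, and 7.67, 7.18 and 7.70 in the 48 hpi replicates. All 3 injured samples lay above all controls. This was a log2 difference of 0.98 ± 0.20 (SE), or 1.98-fold, with an adjusted p of 0.0413 in limma and 0.00234 with the block. Its other probe set was level, at 5.56 in both groups (log2 difference -0.01, adjusted p 0.984 in limma), and the mean of both probe sets gave 0.49 and lost the call (adjusted p 0.0745 in limma). The call was also lost without control replicate 2 or 3 and without 48 hpi replicate 1 or 3, with adjusted p from 0.105 to 0.163 in limma.

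Tnfrsf13b encodes TACI, a receptor for BAFF and APRIL that is best known from B cells. Levels were 4.58, 4.76 and 5.06 in controls and 6.11, 5.43 and 5.99 at 48 hpi, with no overlap. This amounted to a log2 difference of 1.05 ± 0.20 (SE), or 2.06-fold, with an adjusted p of 0.0358 in limma and 0.0121 with the block. Controls lay below the median of all values, so this fold is poorly fixed. Only the fit without 48 hpi replicate 2 kept the call among the 6 that left out 1 sample, and the adjusted p reached 0.149 without 48 hpi replicate 3.

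Leukocyte markers moved with these receptors in part. For the marker counts that follow, 4.97% of all genes rose without the block. With the block 8.77% rose and 4.64% fell, and 23.9% had an unadjusted p under 0.05 in either direction. Of 9 macrophage markers 8 rose, and the mean level of the list went from 6.95 to 7.26 in controls to 8.49 to 8.85 at 48 hpi. In controls, Itgam was the 1 macrophage marker whose mean lay below the median, at 3.95. The exception was Mertk, at -0.45, which fell with the replicate block. Of 5 neutrophil markers 3 rose, with list means of 4.42 to 5.57 in controls and 6.62 to 7.48 at 48 hpi. By contrast, 0 of 6 B and plasma cell markers were called in limma, and 0 at an unadjusted p under 0.05, with list means of 4.24 to 5.22 and 4.42 to 5.10. The B cell markers Cd79a, Cd79b, Ms4a1 and Pax5 were dim in both groups. The plasma cell marker Jchain was high in both samples numbered 1, at 8.62 in control and 7.79 at 48 hpi, and at 3.88 to 5.06 in the other 4. Of 6 endothelial markers 3 rose without the block and 4 with it, with list means of 7.02 to 7.29 in controls and 7.495 to 7.67 at 48 hpi. All 4 markers of dividing cells rose, with list means of 5.26 to 5.63 in controls and 8.16 to 8.75 at 48 hpi. Of 6 dendritic cell and 6 mast cell markers 0 were called in limma, with 2 and 0 at an unadjusted p under 0.05, and 2 of each list rose with the block. Dendritic list means were 5.29 to 5.38 in controls and 5.36 to 5.74 at 48 hpi, and mast cell list means 5.43 to 6.51 and 6.24 to 6.59. The part of these cell types and of dividing cells in the rise of Tnfrsf1b and Tnfrsf13b was not tested.

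Tnfrsf12a, the receptor Fn14 for the cytokine TWEAK, is known to be induced in injured tissue. It was bright in every sample, at 8.76, 9.15 and 8.35 in controls and 9.72, 9.40 and 9.52 at 48 hpi. The groups did not overlap, but control replicate 2 came close to the lowest injured sample. Its log2 difference of 0.79 ± 0.20 (SE), or 1.73-fold, came with an adjusted p of 0.0805 in limma and 0.0329 with the block. Both of its probe sets gave the same direction, the other with a log2 difference of 1.03 (adjusted p 0.0970 in limma and 0.0339 with the block). Without control replicate 2 the call was reached in the fit without the block (adjusted p 0.0484 in limma).

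The ligand of Fn14, Tnfsf12 (TWEAK), was on 2 probe sets that also carry other symbols and is therefore no member. The probe set shared with Tnfsfm13 went from 7.92, 7.73 and 7.61 to 7.94, 7.59 and 7.55, a log2 difference of -0.06. The one shared with Tnfsfm13 and Tnfsf13 differed by 0.15. Neither was called in limma, with adjusted p of 0.847 and 0.610, so no difference of the ligand beside its receptor was detected.

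Other TRAF-binding receptors differed less. Ltbr, the lymphotoxin beta receptor of stromal cells, was 7.72, 7.79 and 7.54 in controls and 8.12, 7.91 and 7.96 at 48 hpi, a log2 difference of 0.31 ± 0.10 (SE, adjusted p 0.164 in limma). Cd40, which passes on help from T cells, was 5.26, 5.35 and 5.30 in controls and 5.52, 5.43 and 5.73 at 48 hpi, a difference of 0.26 ± 0.10 (SE, adjusted p 0.220 in limma). The groups did not overlap for Ltbr or Cd40, nor for Tnfrsf9 (4-1BB), at 0.29 and higher, or for Tnfrsf19, Tnfrsf4 (OX40) and Tnfrsf8 (CD30), at -0.33, -0.19 and -0.15. None of these 6 was called with or without the block. Tnfrsf18 (GITR, 0.12) and Tnfrsf11a (RANK, -0.03) were measurable and overlapped. The remaining 4, Tnfrsf14, Cd27, Tnfrsf17 and Tnfrsf13c, were dim and lay between -0.10 and 0.11.

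Over all 37 members, the 48 hpi values lay wholly above the controls in 11 and wholly below in 5. This happened in 17.2% and 13.1% of all genes, or 30.4% in either direction.

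**Figure D2:**
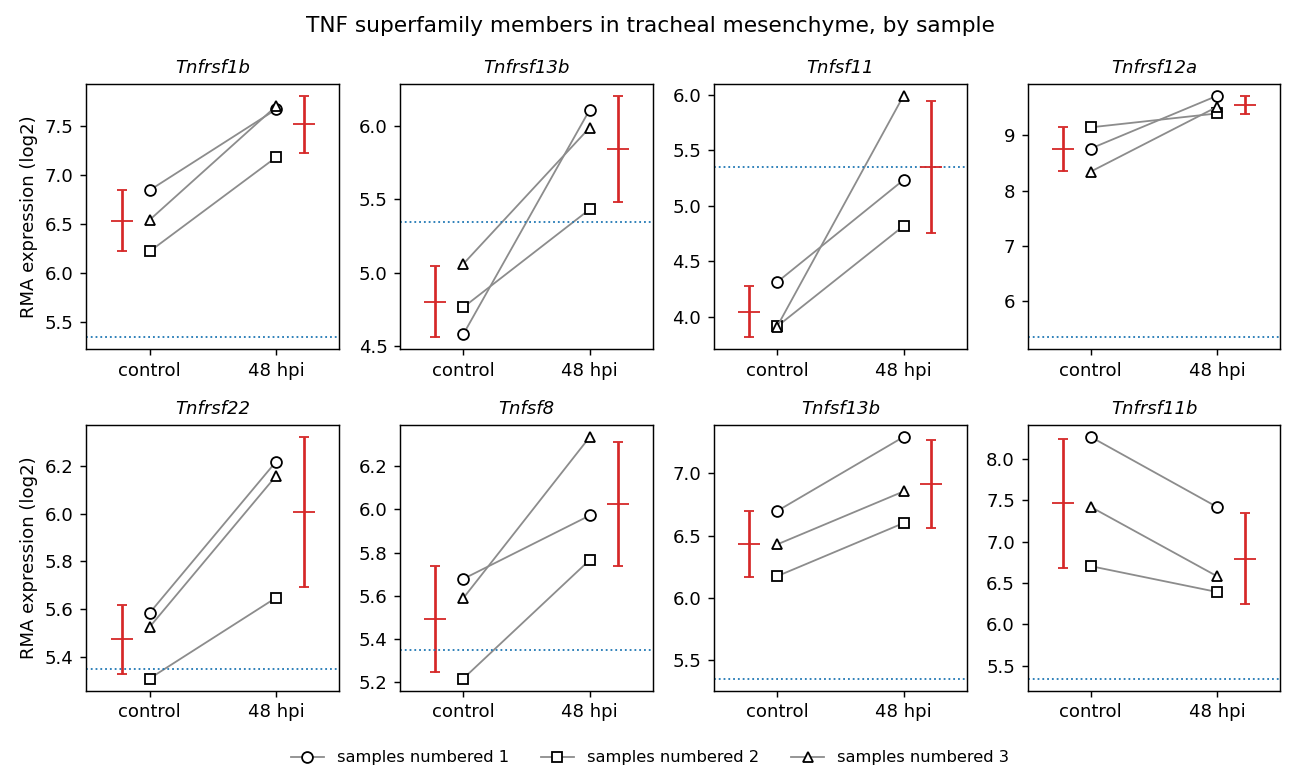
RMA expression on the log2 scale (vertical axes, each with its own range) in control and 48 hpi mesenchyme (horizontal axes) of the 8 members called with or without the replicate block. Symbols show single samples, gray lines join samples that share a replicate number, red bars give the mean ± SD of 3 samples and the dotted line is the median of all values at 5.35. Lines rise in all 3 pairs for 7 genes and fall in all 3 for Tnfrsf11b. Most of the 8 were called only in the fit that blocks on these pairs, so this is no separate support.

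Of 13 ligands 0 were called in limma, against 3 at an unadjusted p under 0.05, all higher. Of all genes, 23.9% passed that unadjusted threshold in either direction. With the replicate block 3 ligands rose, Tnfsf11, Tnfsf8 and Tnfsf13b, where 8.77% of all genes did. The unmoderated model, for which no share of all genes is given, called no ligand either.

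Tnfsf11 encodes RANKL, which drives osteoclast formation and lymphoid tissue development. It was 4.31, 3.92 and 3.91 in controls and 5.23, 4.82 and 5.99 at 48 hpi. Every injured sample was above every control, and 48 hpi replicate 3 was the highest by a wide margin. The log2 difference was 1.30 ± 0.28 (SE), or 2.46-fold, and the adjusted p was 0.0526 in limma and 0.0173 with the block. The mean at 48 hpi, 5.35, lay at the median of all values and the control mean of 4.05 below it, so the fold is poorly fixed. The other probe set was dim and level, at 3.71 in both groups. The call was reached when adjusted over 1 probe set per gene (adjusted p 0.0369 in limma) and without 48 hpi replicate 2 (0.0347).

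Its receptor and its decoy were measured beside it. Tnfrsf11a, the signaling receptor RANK, was level at 5.88 ± 0.06 and 5.85 ± 0.10 (SD, n = 3), with a difference of -0.03 and a 95% interval from -0.24 to 0.18. Its dim second probe set differed by 0.38 and was not called. Tnfrsf11b encodes osteoprotegerin, the secreted decoy that binds RANKL. It was 8.26, 6.70 and 7.42 in controls and 7.42, 6.39 and 6.58 at 48 hpi, so the groups overlapped and the controls were widely spread. Within the samples that share a number it was lower at 48 hpi by 0.85, 0.31 and 0.84, lower in 3 of 3 pairs. The log2 difference of -0.67 ± 0.42 (SE) had an adjusted p of 0.442 in limma and 0.0225 with the block, which rests on these same pairs. Without control replicate 1 it was -0.26, and without control replicate 2 it was -1.04, neither called. All 6 chondrocyte markers were lower as well, with a median of -0.56 and list means of 11.53 to 11.8 in controls and 11.03 to 11.4 at 48 hpi. Of these markers 0 were called without the block (3 at an unadjusted p under 0.05). With the block 3 fell in limma, where 4.64% of all genes did. The part of chondrocytes in the fall of Tnfrsf11b was not tested. The dim second probe set of Tnfrsf11b gave -0.19 and was called in neither fit.

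Tnfsf13b, the B cell survival factor BAFF that macrophages and stromal cells also make, was 6.70, 6.17 and 6.43 in controls and 7.29, 6.60 and 6.86 at 48 hpi. The groups overlapped, since control replicate 1 lay above 48 hpi replicate 2, yet the gene was higher by 0.60, 0.43 and 0.43 within the pairs of samples with the same number. The log2 difference was 0.48 ± 0.20 (SE, 1.40-fold), with an adjusted p of 0.257 in limma and 0.0199 with the block, which rests on these same pairs. The other 2 probe sets, at 0.12 and -0.06, were called in neither fit. Of its receptors, TACI rose as given above, while Tnfrsf13c (the BAFF receptor, 3.57 and 3.47) and Tnfrsf17 (BCMA, 3.75 and 3.71) were dim in both groups.

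Tnfsf8 encodes the ligand of CD30. It was 5.68, 5.22 and 5.59 in controls and 5.97, 5.77 and 6.34 at 48 hpi, without overlap, although the highest control and the lowest injured sample were close. Its log2 difference of 0.53 ± 0.18 (SE, 1.44-fold) came with an adjusted p of 0.166 in limma and 0.0283 with the block. Its receptor Tnfrsf8 was dim. Of 8 T cell markers 0 were called in limma and 0 at an unadjusted p under 0.05, with list means of 4.62 to 5.11 in controls and 4.69 to 4.85 at 48 hpi. The part of any cell type in the rise of Tnfsf8 with the block was not tested.

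Tnf itself, the founding cytokine of the family, was dim at 4.65, 4.26 and 4.55 in controls and 4.87, 4.50 and 4.51 at 48 hpi. The groups overlapped. The log2 difference was 0.14 ± 0.14 (SE), with an adjusted p of 0.649 in limma and a 95% interval from -0.20 to 0.48. Among ligands that were not dim, Ltb (lymphotoxin beta, 0.09), Tnfsf9 (the ligand of 4-1BB, 0.16) and Tnfsf10 (the death ligand TRAIL, 0.19) were not called. Other dim ligands were Lta (0.08), Fasl (-0.08), Cd40lg (-0.02), Cd70 (-0.17), Tnfsf4 (the OX40 ligand, -0.16) and Tnfsf14 (LIGHT, 0.20). For Cd70 and Tnfsf4 all injured samples lay below all controls, by differences that were not called.

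Of 5 death domain receptors 0 were called in limma, with or without the block, while 1 was higher and 1 lower at an unadjusted p under 0.05. Across all genes, 23.9% passed that unadjusted threshold in either direction. Tnfrsf1a, the TNF receptor found on most cells (TNFR1), was 9.81, 9.78 and 9.72 in controls and 10.28, 9.96 and 10.14 at 48 hpi. All injured samples lay above all controls, by a small margin. This log2 difference of 0.36 ± 0.10 (SE, 1.28-fold) came with an adjusted p of 0.115 in limma and 0.0619 with the block. The difference of Tnfrsf1b was nominally larger, but no test compared these receptors with each other.

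Fas, the receptor of the Fas death ligand, was 7.05, 7.18 and 7.09 in controls and 7.13, 7.02 and 6.94 at 48 hpi. These values overlapped, with a difference of -0.08 and a 95% interval from -0.29 to 0.14. Tnfrsf21, the death receptor DR6, was lower in the injured samples numbered 2 and 3 but not in the one numbered 1, at a difference of -0.35 ± 0.13 (SE, adjusted p 0.196 in limma), and its second probe set was level at 0.05. Tnfrsf10b, the TRAIL receptor, and Tnfrsf25, the death receptor DR3, were dim, at -0.17 and -0.06.

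Decoy receptors went both ways. Tnfrsf22, a mouse decoy receptor for TRAIL, was 5.58, 5.31 and 5.52 in controls and 6.22, 5.65 and 6.16 at 48 hpi. The groups did not overlap, although 48 hpi replicate 2 stood near the controls. A log2 difference of 0.54 ± 0.17 (SE, 1.45-fold) came with an adjusted p of 0.136 in limma, 0.0204 with the block and 0.0402 without 48 hpi replicate 2. Its 2 dim probe sets differed by -0.02 and 0.11. Tnfrsf23, the neighboring TRAIL decoy gene, was dim at 4.69 and 4.97, a difference of 0.28. A brighter probe set that the annotation assigns to both Tnfrsf22 and Tnfrsf23, and that is therefore no member, was 7.08, 6.42 and 7.01 in controls and 7.36, 7.45 and 7.92 at 48 hpi. Its difference of 0.74 ± 0.22 (SE) had an adjusted p of 0.119 in limma and 0.0277 with the block. The lncRNA gene Tnfsf13os was dim and level, at 0.01.

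**Figure D3:**
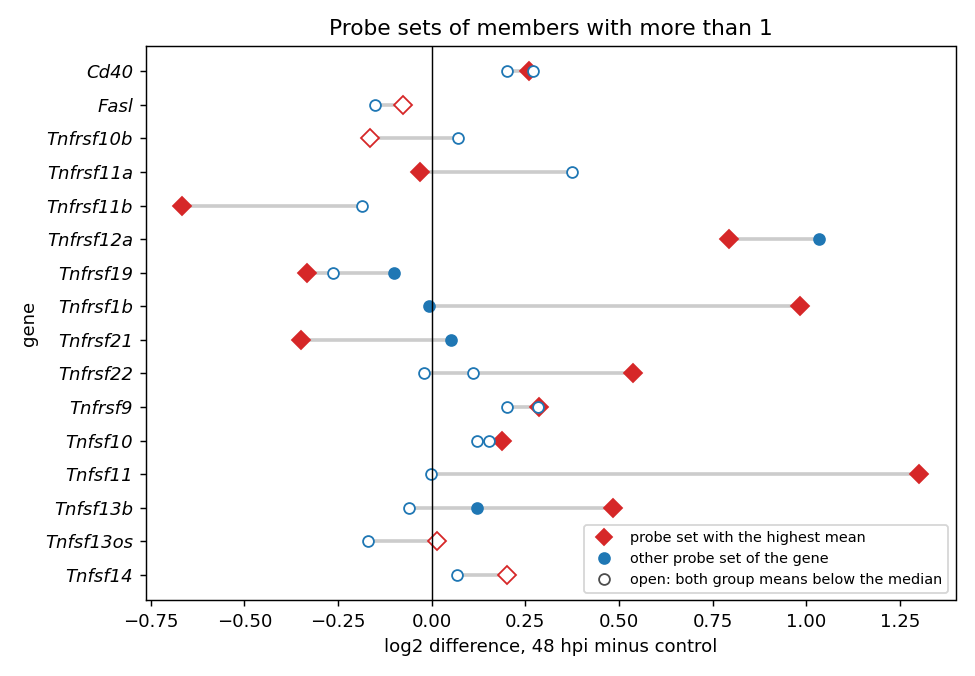
Horizontal positions give the log2 difference, 48 hpi minus control, of every probe set of the 16 members that have more than 1 (vertical axis). Diamonds mark the probe set with the highest mean, circles the others, and open symbols are dim. The probe sets of Tnfrsf12a and of Cd40 lie on the same side of 0, whereas those of Tnfrsf1b run from -0.01 to 0.98 and 1 of the 2 of Tnfsf11 lies at 1.30, the other at 0.

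Probe sets of a gene often disagreed in size, and in several members also in direction. In Tnfrsf10b they lay at -0.17 and 0.07, in Tnfrsf11a at -0.03 and 0.38 and in Tnfrsf21 at -0.35 and 0.05. Those of Tnfsf13b lay at 0.48, 0.12 and -0.06 and those of Tnfsf13os at 0.01 and -0.17. Other members had probe sets on the same side of 0. In Cd40 all 3 probe sets lay between 0.20 and 0.27, in Tnfrsf9 between 0.20 and 0.29 and in Tnfsf10 between 0.12 and 0.19. In Tnfrsf19 they lay at -0.33, -0.26 and -0.10. Different probe sets can read different ends or forms of a transcript, and which of these applies was not tested.

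Of 28 adaptors and proximal signaling genes downstream of the receptors, Ripk3, Mlkl and Casp8 rose, Map3k5 fell and 24 were not called, where 4.97% of all genes rose and 1.24% fell. Ripk3, the kinase that starts necroptosis, went from 5.57, 5.52 and 5.61 to 7.07, 6.67 and 7.44, a 2.82-fold rise (adjusted p 0.00723 in limma). Mlkl, the membrane-permeating protein that Ripk3 phosphorylates, went from 4.87, 5.01 and 4.75 to 6.38, 6.06 and 6.30, a difference of 1.37 ± 0.12 (SE, adjusted p 0.00174 in limma). Neither gene had overlapping groups, and both passed in all 6 fits that left out 1 sample.

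Casp8, the caspase that cleaves Ripk proteins and starts apoptosis, rose by 0.70 ± 0.09 (SE, adjusted p 0.00997 in limma) and passed in 5 of those 6 fits. Map3k5, the stress kinase ASK1, fell by 0.47 ± 0.10 on the log2 scale (SE, adjusted p 0.0443 in limma), a call that none of the 6 fits kept. The list had a median of 0.07. Traf1, a TRAF adaptor induced by NF-kappaB, was 0.51 higher and passed with the block alone (adjusted p 0.0408, against 0.122 in limma without it). All pathway lists, here and in what follows, were chosen with earlier results of these data known. In addition, Traf1, Adam17, Timp3, Tnfaip3 and Vcam1 were picked for mention after their values were seen.

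Of 7 genes that shed TNF or control its message, 1 rose and 0 fell, where 4.97% of all genes rose. This was Adam10, a membrane sheddase, which rose by 0.54 ± 0.10 (SE, adjusted p 0.0318 in limma) and kept the call in 1 of the 6 fits. Adam17, the main TNF convertase, differed by 0.15 (adjusted p 0.635 in limma). Timp3, the inhibitor of Adam17, differed by -0.53 and passed with the block alone (adjusted p 0.0214, against 0.103 in limma without it).

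Of 24 genes known to be induced by TNF, 5 rose and 0 fell, where 4.97% of all genes rose. At an unadjusted p under 0.05, 14 were higher and 1 was lower, where 23.9% of all genes passed in either direction. The median log2 difference of the list was 0.44, that of all genes -0.01. With the block 11 rose, where 8.77% of all genes did. Cxcl2, Ccl7 and Ccl2, chemokines for neutrophils and monocytes, rose by 2.87, 2.84 and 2.47. Mmp3, a matrix protease of stromal cells, rose by 1.28, and the adhesion molecule gene Vcam1 by 1.02. Adjusted p of these 5 ran from 0.00847 for Vcam1 to 0.0391 for Ccl2 in limma. Vcam1 kept its call in all 6 fits that left out 1 sample, whereas Ccl7 kept it in 1 and Ccl2 in 2. Many of these genes are also induced by other cytokines and expressed by macrophages, whose markers rose in the same samples, and the part of TNF in their rise was not tested.

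The feedback inhibitor Tnfaip3, an NF-kappaB target that restrains TNF signaling, was 8.93, 7.99 and 7.75 in controls and 8.19, 8.53 and 7.69 at 48 hpi, with overlap and a difference of -0.09 (adjusted p 0.920 in limma). Of the 6 family members and partners with other symbols, 0 were called in limma with or without the block. At an unadjusted p under 0.05, 2 of these 6 were higher, where 23.9% of all genes passed in either direction. The brightest were Relt, a receptor of leukocytes, at 0.24 and the neurotrophin receptor Ngfr at 0.37.

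**Figure D4:**
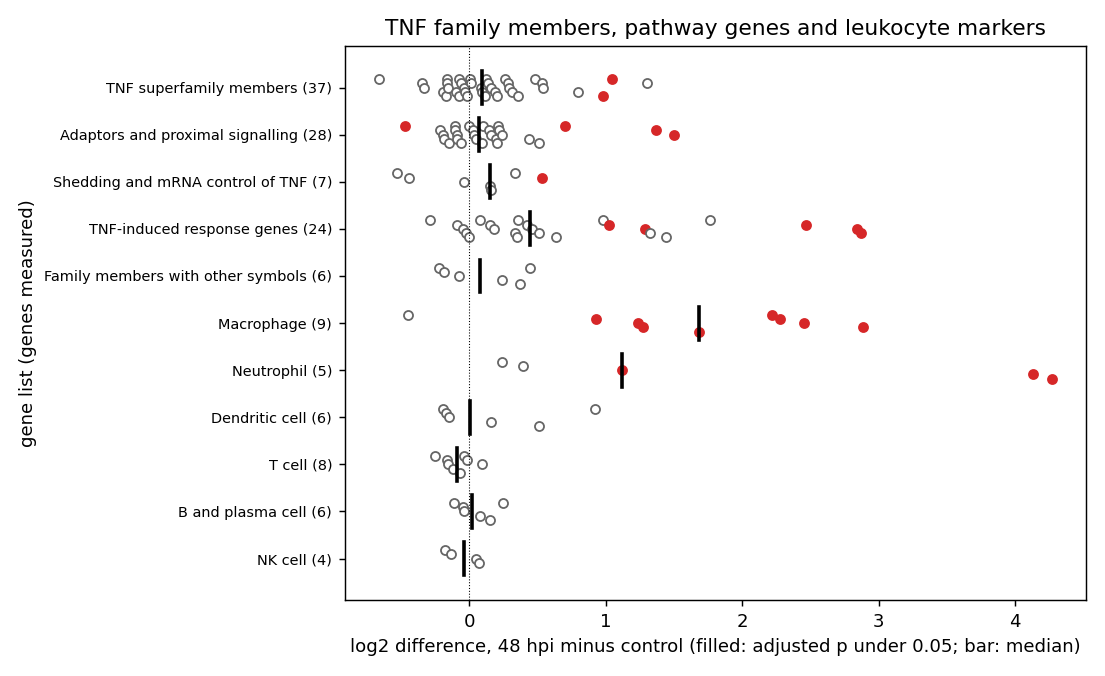
Horizontal positions give the log2 difference, 48 hpi minus control, of the 37 members, of 4 lists of pathway genes and of 6 lists of leukocyte markers (vertical axis, with the number measured). Filled points had an adjusted p under 0.05 and bars mark list medians. The members center near 0 with 2 filled points, the macrophage list has a median of 1.69 with 8 of 9 filled, and the T cell and B and plasma cell lists have none.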

How the data were processed

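RNA of 6 samples, 3 control and 3 at 48 hpi, was amplified and hybridized by the authors, 1 sample per Affymetrix mouse genome array. The deposited table holds log2 values that the authors made with RMA, which corrects background, normalizes by quantiles and summarizes each probe set. Partek 6.5 and Affymetrix Expression Console 1.1 are named beside RMA in the submitters' processing notes. RMA removes shared shifts between arrays and compresses folds of dim genes. For arrays, their number limits the precision. Separate pools of mice were the replicates, so p-values measure the spread between pools.

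The table held 45101 probe sets. Without 64 controls, 45037 were fitted with limma 3.58.1 in R 4.3.3 (lmFit and eBayes, two-sided tests) with group alone in the model and Benjamini-Hochberg adjustment over all of them. All adjusted p come from this fit or, where said, from that with the replicate block. Residual degrees of freedom were 4 without the block and 2 with it. Of 34945 probe sets with 1 symbol, 34741 were matched to RefSeq (GRCm38.p6) by Entrez identifier. Several symbols belonged to 932 and none to 9160. The fit without the block was also run on simulated data with independent noise in each sample. That setting lacks the shared deviations of same-numbered samples, so it says nothing about them or about the fit with the block. The study's methods name ANOVA over epithelium and mesenchyme; the epithelial arrays were not used here.

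Same-numbered samples deviated together, with correlations of 0.62, 0.36 and 0.34 across probe sets after removal of group means. Between differently numbered samples the correlations ran from -0.43 to 0.18. They were 0.18 for control 3 with 48 hpi 2 and 0.11 for control 2 with 48 hpi 3. Numbers 2 and 3 were thus told apart less clearly than number 1. The labels do not say what a number marks, so the pairing comes from the data. The members, roles, 65 pathway genes (62 measured) and 93 markers (84 measured) were chosen with earlier results of these data known, and Traf1, Tnfaip3 and Birc3 stand in 2 pathway lists. Named in full were members called in either fit and 10 genes fixed by name, and of each pathway list up to 4 called genes in each direction. Vcam1 was named beyond these 4. Of 43 family symbols in RefSeq 6 had no probe set of their own: Tnfsf12, Tnfsf13 and Tnfsfm13 shared probe sets with others, and Tnfrsf26, Tnfsf15 and Tnfsf18 were not analysed here. Promoter windows came from RefSeq, GRCm38.p6. Alternatives left out single samples, samples numbered 1 or dim probe sets, averaged probe sets, rescaled arrays, or changed the variance model, weights or adjustment.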

Additional observations from a re-analysis of the deposited data

How the results depend on the processing

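Over 16 alternatives, signs changed in 31 of 576 values of single members, in 9 members, and in none of these was the member called. The count of members that rose was 2 without the replicate block and 7 with it, and members that fell were 0 and 1. Pathway genes that rose were 9 and 15 and those that fell were 1 and 2, while markers that fell were 1 and 8. The share of all genes called is given only for the fits without the block, with it and without both samples numbered 1. Counts from the other alternatives therefore cannot be set against all genes, and their swings are not results about the members. Leaving out 1 sample gave 0 to 4 members that rose and 0 to 0 that fell. Among pathway genes, 4 to 9 rose and 0 to 0 fell in limma (2 or 3 unadjusted), and among markers 12 to 17 rose and 0 to 2 fell. Of members, 0 rose without control replicate 3, without 48 hpi replicate 1 and without 48 hpi replicate 3 in limma, with 8, 8 and 6 higher at an unadjusted p under 0.05, 1 rose without control replicate 1 or 2, and 4 without 48 hpi replicate 2. Of pathway genes that rose, 5, 5, 5 and 4 remained without control replicate 2, control replicate 3, 48 hpi replicate 1 and 48 hpi replicate 3. Without both samples numbered 1, 0 members (9 unadjusted) and 11 markers rose and 0 pathway genes fell (2 unadjusted). In the unmoderated model 0 members, 0 pathway genes and 2 markers rose (8 members and 18 pathway genes unadjusted), and 0 pathway genes and 0 markers fell (5 and 6 unadjusted). Markers that fell were 2 with the mean of all probe sets, 2 with adjustment over 1 probe set per gene and 0 with centred arrays (7 unadjusted). Tnfrsf1b also lost its call with repeated quantile normalization (adjusted p 0.0501 in limma). Tnfsf11 gained one with centred arrays (0.0435), repeated quantile normalization (0.0455) and the mean of its probe sets (0.0409). It also gained one with dim probe sets left out (0.0406). However, Tnfsf11 passed that filter only through its 48 hpi mean, so this call is no support for the rise. The cause was not tested. Dim members limit what could be seen.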
